A study of Mus musculus with 8 samples.

Results

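Expression of 10 genes of glucose production and glycogen turnover was followed in the livers of mice on a diet used to induce steatohepatitis. The genes were taken from the deposited table by their symbols (Pck1, G6pc, Fbp1, Pcx, Slc37a4, Gys2, Ugp2, Pygl, Ppp1r3b and Ppp1r3c). All 10 were found, among 52110 rows with a gene name. The data are 8 bulk RNA sequencing libraries of whole liver. All mice had the genotype WT and were fed the CDAHFD diet, which lacks choline, is rich in fat and replaces protein by defined amino acids. They also received extracellular vesicles from the blood of human volunteers by intravenous injection. In the group ctr_hEV (4 libraries) the volunteers had a sham treatment, and in the group RIC_hEV (4 libraries) they had remote limb ischemic conditioning, short periods of stopped blood flow in a limb. A group without the diet or without vesicles is not analysed here. The labels name neither strain, sex, age, vesicle dose, feeding state nor hour of harvest, and do not tie libraries to animals, so p-values measure only the spread between these libraries, which may be technical.

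The liver makes glucose from lactate, amino acids and glycerol between meals and stores it as glycogen after them. In gluconeogenesis pyruvate carboxylase and phosphoenolpyruvate carboxykinase bypass the irreversible last step of glycolysis, fructose-1,6-bisphosphatase reverses an earlier one, and glucose-6-phosphatase releases free glucose in the endoplasmic reticulum. Glycogen is built from UDP-glucose by glycogen synthase and broken down by glycogen phosphorylase, and small targeting subunits bring protein phosphatase 1 to the glycogen particle, where it turns the synthase on and the phosphorylase off. Glucagon acting through cyclic AMP raises transcription of Pck1 and G6pc, and insulin lowers it through FOXO1.

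Levels are FPKM as deposited, fragment counts scaled to gene length and to the mapped fragments of the library, and values per library stand in the order of replicates 1 to 4. Depth was estimated from the steps between low values at 19300000 to 28800000 fragments per library, which gives from 83 to 408 fragments per library for Ppp1r3c, the gene with the lowest level of the 10, and from 47400 to 92600 for Pck1, the highest. The libraries ctr_hEV 1 and ctr_hEV 3 stood apart on the first principal component (-36.1 and -23.3, against -2.36 to 16.3 in the other 6 libraries), and ctr_hEV 4 (16.3) lay among the RIC_hEV libraries (4.75 to 16.3). Changes are differences of mean log2(FPKM + 1), RIC_hEV over ctr_hEV. Their median over the 11274 genes tested was -0.11, and each change called relative below has that median taken off. SE and p-values refer to the uncorrected difference.

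No gene of the 10 passed the threshold (limma, Benjamini-Hochberg adjusted p under 0.05 over all tested genes), where 0.0355% of all tested genes did (4 genes, 2 of them higher). The lowest adjusted p of the 10 was 0.332. At an unadjusted limma p under 0.05 there were 2 genes, Gys2 and G6pc, both higher in RIC_hEV, where 2.63% of all tested genes were higher and 11.3% lower in this sense. With each library centred on its median gene there were 3 (Pcx in addition), against 8.14% higher and 3.89% lower among all genes. The groups did not overlap in 1 of the 10, Gys2. Over all tested genes, RIC_hEV lay wholly above ctr_hEV in 1.31% and wholly below in 4.56%. Relative to the median gene, 7 of the 10 were higher in RIC_hEV and 3 (Pygl, Ugp2 and Ppp1r3c) lower, with a median of 0.35, against 0 by construction for all genes. All 10 passed the filter on low values, and each exceeded 1 FPKM in every library.

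**Figure D1:**
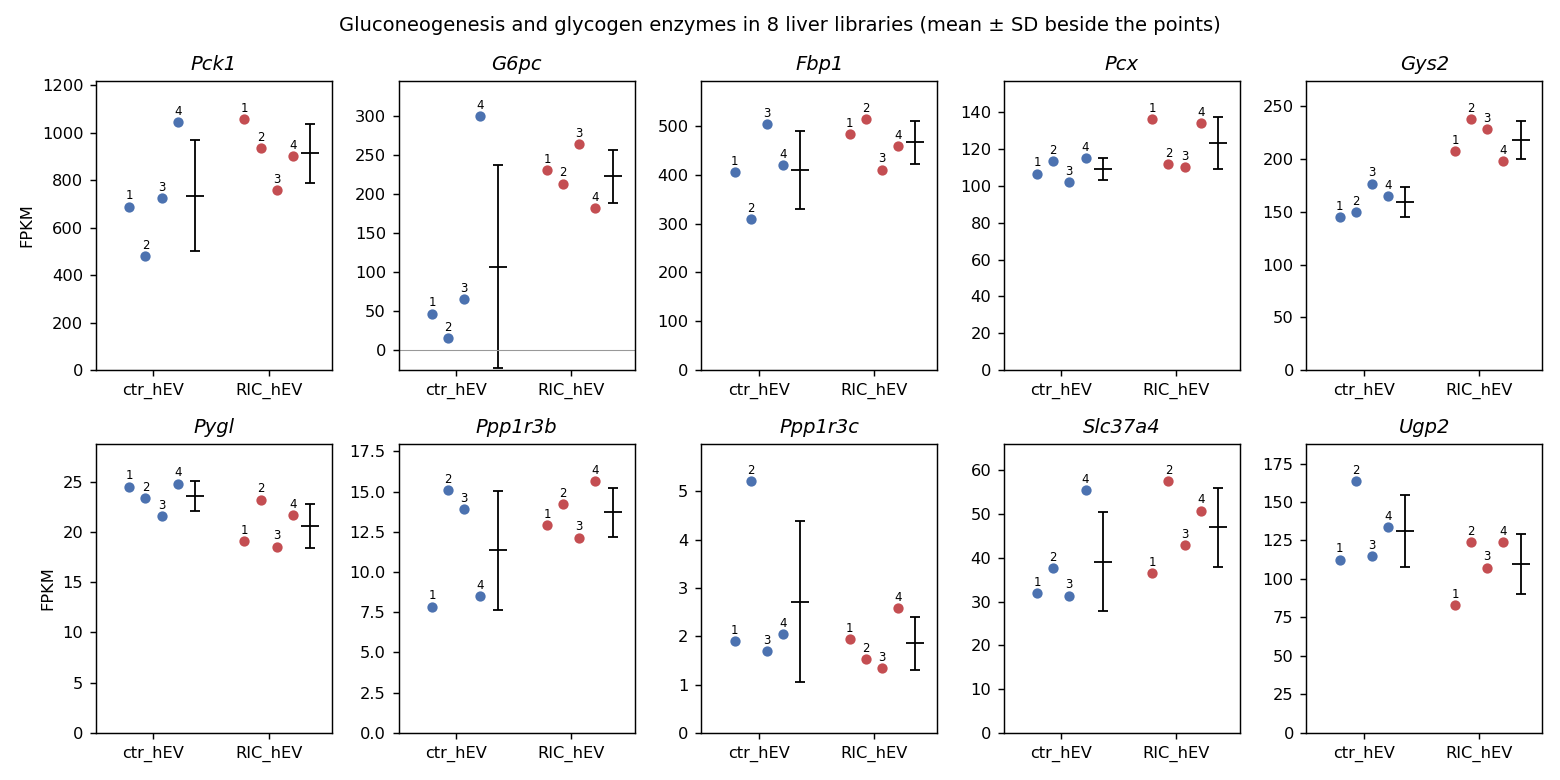
FPKM of each of the 10 genes (vertical axes, linear, different for each gene) in the 4 ctr_hEV (blue) and 4 RIC_hEV (red) libraries, numbered by replicate, with the group mean ± SD in black. Gys2 is the gene whose groups do not overlap, and G6pc has 3 ctr_hEV libraries between 15.2 and 65.9 and the fourth at 299.8.

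G6pc encodes the catalytic subunit of glucose-6-phosphatase, the last step of both gluconeogenesis and glycogen breakdown (chromosome 11, 101367561 to 101377903, plus strand). Its level was 46.8, 15.2, 65.9 and 299.8 FPKM in the ctr_hEV libraries and 231, 213, 264 and 182 FPKM in the RIC_hEV libraries. The first 3 ctr_hEV libraries lay below every RIC_hEV library, and ctr_hEV 4 lay above all of them, so that the groups overlapped through 1 library. The highest ctr_hEV level was 19.7 times the lowest, whereas in RIC_hEV this factor was 1.45. Group means were 107 ± 130.3 FPKM in ctr_hEV and 223 ± 34.2 FPKM in RIC_hEV (SD, n = 4 per group). The relative log2 change was 1.93 (1.82 as fitted, SE 0.67, limma unadjusted p = 0.0208, adjusted p = 0.354). The unadjusted limma p was 0.0657 with robust empirical Bayes and 0.0105 with the replicate block. Without ctr_hEV 4 the ctr_hEV mean was 42.6 ± 25.6 FPKM (n = 3), the relative change was 2.72 and G6pc passed (limma adjusted p = 0.0286). In that fit 176 genes passed, 1.56% of those tested. Without ctr_hEV 2 the change was 1.28 (adjusted p = 0.441).

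Pck1 encodes the cytosolic phosphoenolpyruvate carboxykinase, which commits carbon to gluconeogenesis (chromosome 2, 173153048 to 173159273, plus strand). It ranked 63 by level among the tested genes. Its FPKM was 689, 480, 726 and 1045 in the ctr_hEV libraries and 1059, 935, 759 and 902 in the RIC_hEV libraries. As in G6pc, ctr_hEV 2 was the lowest library and ctr_hEV 1 and 3 came next. ctr_hEV 4 lay among the RIC_hEV libraries, where in G6pc it lay above them. The spread was smaller than in G6pc, a factor of 2.18 within ctr_hEV. Means were 735 ± 233 and 914 ± 123 FPKM, with a relative log2 change of 0.47 (SE 0.21, limma adjusted p = 0.416). Quantile normalization gave 0.16, and the fit without ctr_hEV 2 gave 0.29.

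The promoter windows of both genes are shown because G6pc and Pck1 had their lowest and, within ctr_hEV, their highest level in the same libraries, and that of Ppp1r3g, a subunit described further on, because its library order was nearly that of G6pc. The sequences are RefSeq's (build GRCm38.p6, which is the mm10 assembly), 250 bases before to 50 bases after the start site, on the plus strand. Capitals mark matches to 5 motifs searched on both strands, the cyclic AMP response half-site TGACG, the forkhead site TGTTTAC, the insulin response core TTGTTTTG, the glucocorticoid half-site TGTTCT and the TATA box TATAAA. None of these strings lies inside another.
Pck1, chr2:173152823-173153122: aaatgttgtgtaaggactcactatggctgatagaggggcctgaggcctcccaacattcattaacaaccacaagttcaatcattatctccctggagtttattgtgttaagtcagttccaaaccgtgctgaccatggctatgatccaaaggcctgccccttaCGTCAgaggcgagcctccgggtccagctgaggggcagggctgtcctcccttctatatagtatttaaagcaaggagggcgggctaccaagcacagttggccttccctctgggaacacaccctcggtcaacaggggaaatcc
G6pc, chr11:101367466-101367765: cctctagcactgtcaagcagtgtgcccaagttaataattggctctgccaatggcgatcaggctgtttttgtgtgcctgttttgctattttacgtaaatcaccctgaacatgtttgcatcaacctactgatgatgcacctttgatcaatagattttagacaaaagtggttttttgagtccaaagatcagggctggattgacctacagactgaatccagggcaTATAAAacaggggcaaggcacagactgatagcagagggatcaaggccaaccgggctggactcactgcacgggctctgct
Ppp1r3g, chr13:35967656-35967955: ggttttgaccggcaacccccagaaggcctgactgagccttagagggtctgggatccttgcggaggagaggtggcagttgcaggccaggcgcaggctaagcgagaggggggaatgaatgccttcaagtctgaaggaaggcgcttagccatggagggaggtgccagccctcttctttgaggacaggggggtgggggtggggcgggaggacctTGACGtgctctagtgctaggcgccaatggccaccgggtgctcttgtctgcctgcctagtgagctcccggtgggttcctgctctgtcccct
The Pck1 window held 1 match, a TGACG on the minus strand whose leftmost base lies at position -90 from the start site. The G6pc window held 1, a TATAAA whose first base lies at -29, and the Ppp1r3g window held 1, a TGACG on the plus strand at -40. These distances refer to RefSeq's start sites. The gene positions given in the text are GENCODE's, and the start sites of these windows and the G6pc TATAAA lie inside them. For 8 of the 10 genes (not for Gys2 and Ppp1r3b) there were 12 windows, since some genes have several start sites. TGACG was in 4 of the 12 windows (of Pck1, Pygl and Slc37a4), against 20.8% of all 32817 windows, and TATAAA in 2 (of G6pc and Slc37a4), against 13.6%. The Slc37a4 windows that start at 44396696 and 44396849 overlap. They hold the same plus-strand TGACG, at base 190 of the former and base 37 of the latter, so the windows are not independent. TGTTTAC, TTGTTTTG and TGTTCT were in none of the 12, and in 3.65%, 2.51% and 19.0% of all windows. A match, or its absence, describes these letters only, and variants of the 5 strings were not searched.

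Fbp1, fructose-1,6-bisphosphatase (chromosome 13, 62864753 to 62888282, minus strand), was at 405, 309, 504 and 420.0 FPKM in the ctr_hEV libraries and at 483, 515, 410.3 and 459 in the RIC_hEV libraries. Here too ctr_hEV 2 was lowest, but ctr_hEV 3 lay within the RIC_hEV range. Means were 409 ± 80.1 and 467 ± 44.0 FPKM (relative log2 change 0.32, SE 0.15, limma adjusted p = 0.490). The change was 0.19 without ctr_hEV 2 and 0.11 with quantile normalization. Pcx, the mitochondrial pyruvate carboxylase (chromosome 19, 4510472 to 4621752, plus strand), measured 107, 114, 102 and 115 FPKM in the ctr_hEV libraries and 136, 112, 110.1 and 134 in the RIC_hEV libraries. RIC_hEV 1 and 4 exceeded every ctr_hEV library and RIC_hEV 2 and 3 did not. Means were 109 ± 6.10 and 123 ± 14.1 FPKM (relative log2 change 0.28, SE 0.11, limma adjusted p = 0.460), and quantile normalization gave 0.12. Pcx was the steadiest of the 10 within ctr_hEV, with an SD of 5.59% of the mean, where that of G6pc was 122%.

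Slc37a4 encodes the transporter that carries glucose-6-phosphate to the phosphatase inside the endoplasmic reticulum (chromosome 9, 44396852 to 44402968, plus strand). Its FPKM was 31.8, 37.6, 31.3 and 55.4 in the ctr_hEV libraries and 36.6, 57.4, 43.0 and 50.7 in the RIC_hEV libraries. ctr_hEV 4 was again the highest of its group and RIC_hEV 1 lay below ctr_hEV 2. Means were 39.1 ± 11.3 and 46.9 ± 9.09 FPKM (relative log2 change 0.39, SE 0.19, limma adjusted p = 0.484). The change was 0.05 without ctr_hEV 1 and 3 and 0.61 without ctr_hEV 4. The catalytic subunit varied far more than its transporter, so that the ratio of G6pc to Slc37a4 ran from 0.404 in ctr_hEV 2 to 5.41 in ctr_hEV 4, and from 3.59 to 6.31 in RIC_hEV.

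**Figure D2:**
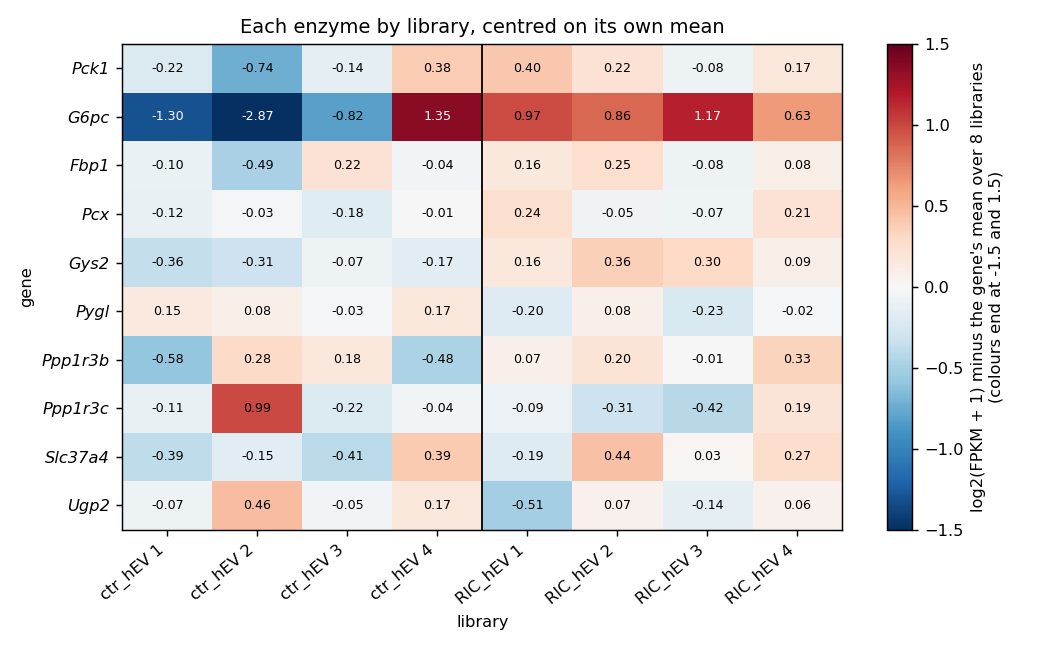
Each gene (rows) in each library (columns), as log2(FPKM + 1) minus the gene's own mean over the 8 libraries, with the value printed in each cell. G6pc runs from -2.87 in ctr_hEV 2 to 1.35 in ctr_hEV 4, Pck1 from -0.74 in ctr_hEV 2 to 0.40 in RIC_hEV 1, and Ppp1r3c stands out at 0.99 in ctr_hEV 2.

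On the glycogen side, the groups did not overlap in Gys2. Among all tested genes 1.31% lay wholly higher and 4.56% wholly lower in RIC_hEV. Gys2 is the liver glycogen synthase (chromosome 6, 142422613 to 142473109, minus strand). It was at 145, 149.9, 177 and 165 FPKM in the ctr_hEV libraries and at 208, 238, 228 and 198 FPKM in the RIC_hEV libraries. Every RIC_hEV library lay above every ctr_hEV library, with 177 and 198 FPKM as the nearest values. Means were 159 ± 14.5 and 218 ± 18.3 FPKM, a ratio of 1.37. The relative log2 change was 0.56 (0.45 as fitted, SE 0.11, limma unadjusted p = 0.00161, adjusted p = 0.332), and the gene ranked 53 among the tested genes by p. Over all 17 alternatives the change lay between 0.39 and 0.63, with an adjusted p from 0.0643 to 0.712. In Gys2 ctr_hEV 4 lay below every RIC_hEV library, in Pck1 among them and in G6pc above them.

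Ugp2 makes UDP-glucose, the substrate of the synthase (chromosome 11, 21321138 to 21371201, minus strand). It was at 113, 163, 115 and 134 FPKM in the ctr_hEV libraries and at 83.1, 124, 107 and 124 FPKM in the RIC_hEV libraries. Its highest library was ctr_hEV 2, the lowest in G6pc and Pck1. Means were 131 ± 23.5 and 109.6 ± 19.4 FPKM (relative log2 change -0.15, SE 0.16, limma adjusted p = 0.443). The change was -0.030 without ctr_hEV 2, -0.038 without RIC_hEV 1, -0.26 without ctr_hEV 1 and -0.30 with quantile normalization. Of its exon bases 2.54% are shared with Gm12043 on the opposite strand, and no source used here gives the strand setting of the counting, so reads there cannot be assigned.

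Pygl, the liver glycogen phosphorylase (chromosome 12, 70190811 to 70231488, minus strand), was at 24.5, 23.4, 21.6 and 24.8 FPKM in the ctr_hEV libraries and at 19.1, 23.2, 18.5 and 21.7 in the RIC_hEV libraries. RIC_hEV 1 and 3 lay below every ctr_hEV library, and RIC_hEV 2 and 4 did not. Means were 23.6 ± 1.48 and 20.6 ± 2.21 FPKM. The log2 change was -0.19 as fitted and -0.08 relative to the median gene (SE 0.11, limma adjusted p = 0.412), and 0.864 was the adjusted p with each library centred. The relative change was -0.011 without ctr_hEV 4 and -0.14 without RIC_hEV 2.

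Ratios of FPKM within a library do not depend on how the library was scaled. With 1 added to each FPKM, as in the counts over pairs below, this holds only nearly, and least for genes at low levels. The ratio of Gys2 to Pygl was 5.92, 6.42, 8.20 and 6.65 in the ctr_hEV libraries and 10.9, 10.3, 12.3 and 9.15 in the RIC_hEV libraries, and the groups did not overlap. That of Gys2 to Ugp2 was 1.29, 0.918, 1.54 and 1.23, and 2.50, 1.92, 2.13 and 1.60, again without overlap. Among the 45 ratios that the 10 genes form, taken as differences of log2(FPKM + 1), these were the only 2 in which the groups did not overlap, where 5.88% of all pairs of tested genes had no overlap. Set against each of the other 11273 tested genes in turn, Gys2 was wholly higher in RIC_hEV in 61.4% of the ratios, Pcx in 9.28%, Ppp1r3b in 8.42%, Fbp1 in 6.49% and each of the other 6 genes in under 1%. In the other direction Pygl was wholly lower in RIC_hEV in 5.82% of its ratios, Ugp2 in 3.12% and Ppp1r3c in 1.1%. These shares describe the levels and are no test, since the genes were chosen with results of these data known.

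**Figure D3:**
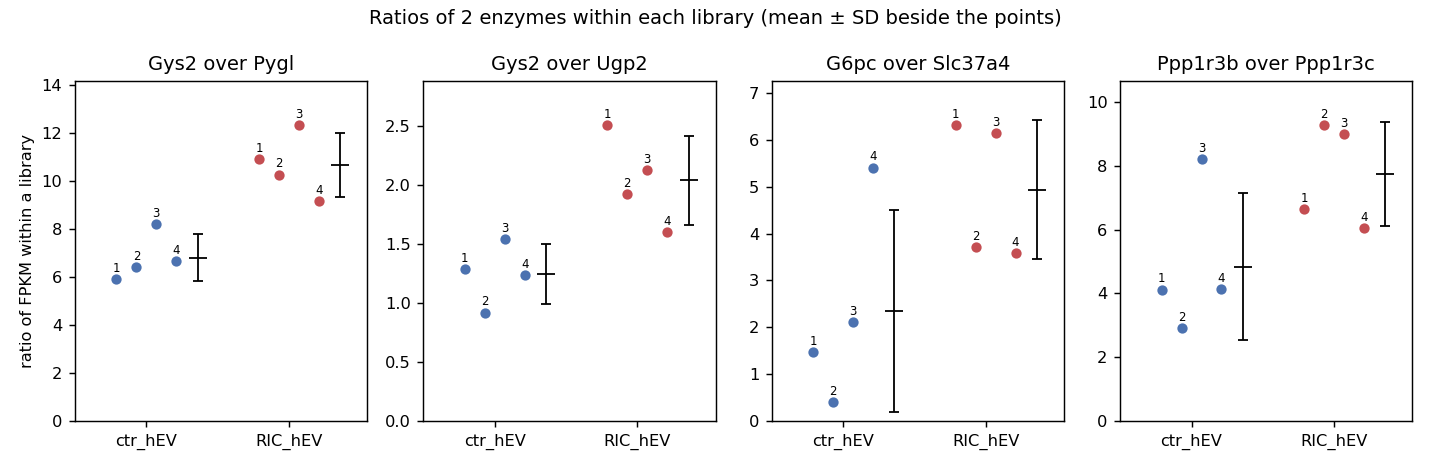
Ratio of the FPKM of 2 genes within each library (vertical axes, linear from 0), with ctr_hEV in blue, RIC_hEV in red, replicate numbers above the points and the mean ± SD in black. The ratios of Gys2 to Pygl (5.92 to 8.20 against 9.15 to 12.3) and to Ugp2 do not overlap between groups, and those of G6pc to Slc37a4 and of Ppp1r3b to Ppp1r3c do.

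Of the targeting subunits of protein phosphatase 1, Ppp1r3b is the main one of liver (chromosome 8, 35375739 to 35388139, plus strand). Its FPKM was 7.85, 15.1, 13.9 and 8.51 in the ctr_hEV libraries and 12.9, 14.2, 12.1 and 15.6 in the RIC_hEV libraries. The ctr_hEV libraries formed a low pair (1 and 4) and a pair within the RIC_hEV range (2 and 3), a division not seen in G6pc or Pck1. Means were 11.3 ± 3.69 and 13.7 ± 1.53 FPKM (relative log2 change 0.41, SE 0.19, limma adjusted p = 0.457). The change was 0.22 without ctr_hEV 1. Ppp1r3c, also called PTG, has the same role in several tissues (chromosome 19, 36731731 to 36736653, minus strand). It was at 1.91, 5.21, 1.70 and 2.05 FPKM in the ctr_hEV libraries and at 1.95, 1.53, 1.35 and 2.59 in the RIC_hEV libraries. A single library, ctr_hEV 2, stood above all others. Means were 2.72 ± 1.67 and 1.85 ± 0.549 FPKM (relative log2 change -0.20, SE 0.25, limma adjusted p = 0.527). The change was -0.33 without ctr_hEV 1 and -0.34 without ctr_hEV 3. Without ctr_hEV 2 the ctr_hEV mean was 1.89 ± 0.178 FPKM (n = 3) and the change turned to 0.084 (adjusted p = 0.923).

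**Figure D4:**
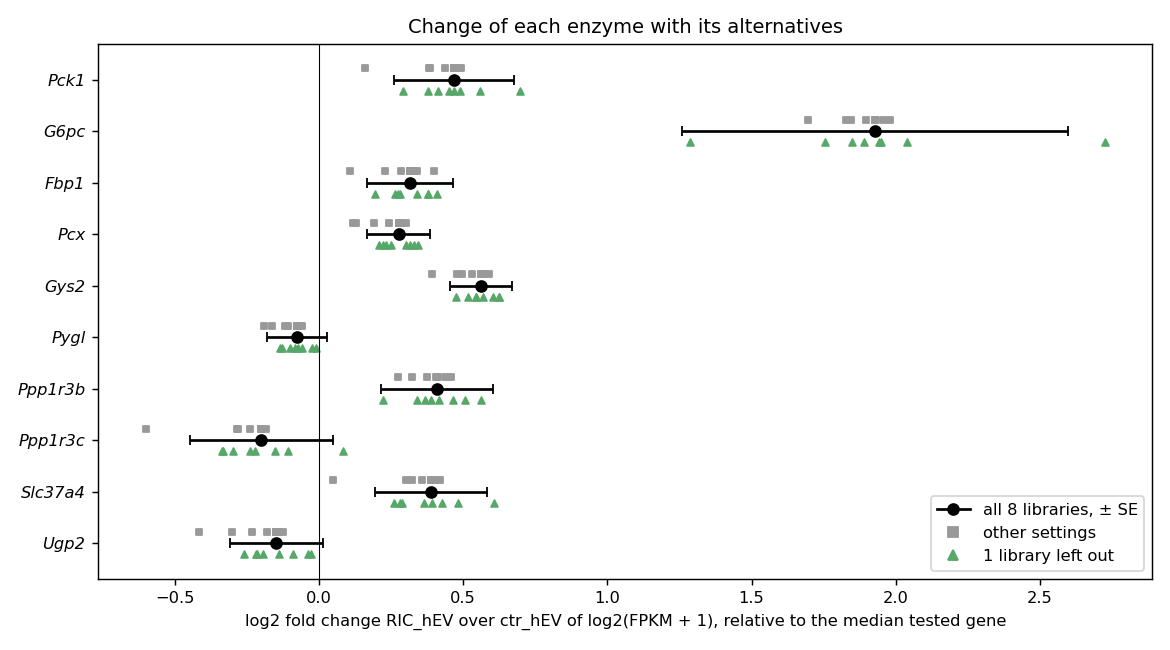
Log2 change of each gene relative to the median tested gene (horizontal axis), with all 8 libraries (black, ± SE of the fitted change), under other settings (grey squares) and with 1 library left out (green triangles). The values of Gys2 stay between 0.39 and 0.63, those of G6pc with 1 library left out run from 1.28 to 2.72, and Ppp1r3c crosses 0 once.

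The liver forms of these enzymes were set beside the forms known from other tissues, on the same per-length scale as far as the unstated gene lengths hold. Pck1 exceeded the mitochondrial carboxykinase Pck2 (1.61 to 3.66 FPKM) by a factor of 188 to 649 within each library. Gys2 exceeded the muscle synthase Gys1 (0.405 to 0.826 FPKM) by a factor of 176 to 476. Fbp2, the muscle form, was at 0.896 to 2.73 FPKM. The ubiquitous phosphatase G6pc3 was at 1.45 to 3.19 FPKM in all 8 libraries, so that the ratio of G6pc to it moved from 6.73 in ctr_hEV 2 to 206 in ctr_hEV 4. G6pc2, the islet form, was listed at 0 in 7 libraries and at 0.0487 FPKM in RIC_hEV 1. Pygm, the muscle phosphorylase, was at 0.245 to 0.613 FPKM. The brain form Pygb was at 9.78 and 8.12 FPKM in ctr_hEV 1 and 3, the libraries that stood apart, and at 2.16 to 3.18 FPKM in the other 6. In those 2 libraries the ratio of Pygl to Pygb was 2.51 and 2.65, and in the others 6.77 to 10.7.

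Among the other targeting subunits, Ppp1r3g had nearly the library order of G6pc. It encodes a glycogen-targeting subunit (chromosome 13, 35958839 to 35970388, plus strand). Its FPKM was 3.70, 0.0215, 7.91 and 39.8 in the ctr_hEV libraries and 29.4, 24.6, 28.6 and 10.3 in the RIC_hEV libraries. The order of the libraries was that of G6pc (ctr_hEV 2, 1, 3, RIC_hEV 4, 2, then RIC_hEV 1 and 3, and ctr_hEV 4 highest) with RIC_hEV 1 and 3 exchanged. The value in ctr_hEV 2 corresponds to an estimated 1 fragment. Means were 12.9 ± 18.3 and 23.2 ± 8.85 FPKM (relative log2 change 1.92, SE 0.88, limma adjusted p = 0.370). Ppp1r3e was at 1.40 to 2.34 FPKM, Ppp1r3d at 0.111 to 0.529, and Ppp1r3f had group means of 0.148 in ctr_hEV and 0.0734 in RIC_hEV. Ppp1r3a, the muscle form, was listed at 0 in 7 libraries and at 0.00497 FPKM in ctr_hEV 2. Of the 12 genes in this list of isozymes 6 passed the filter on low values, and 0 passed the threshold in either direction, with 0 at an unadjusted p under 0.05.

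**Figure D5:**
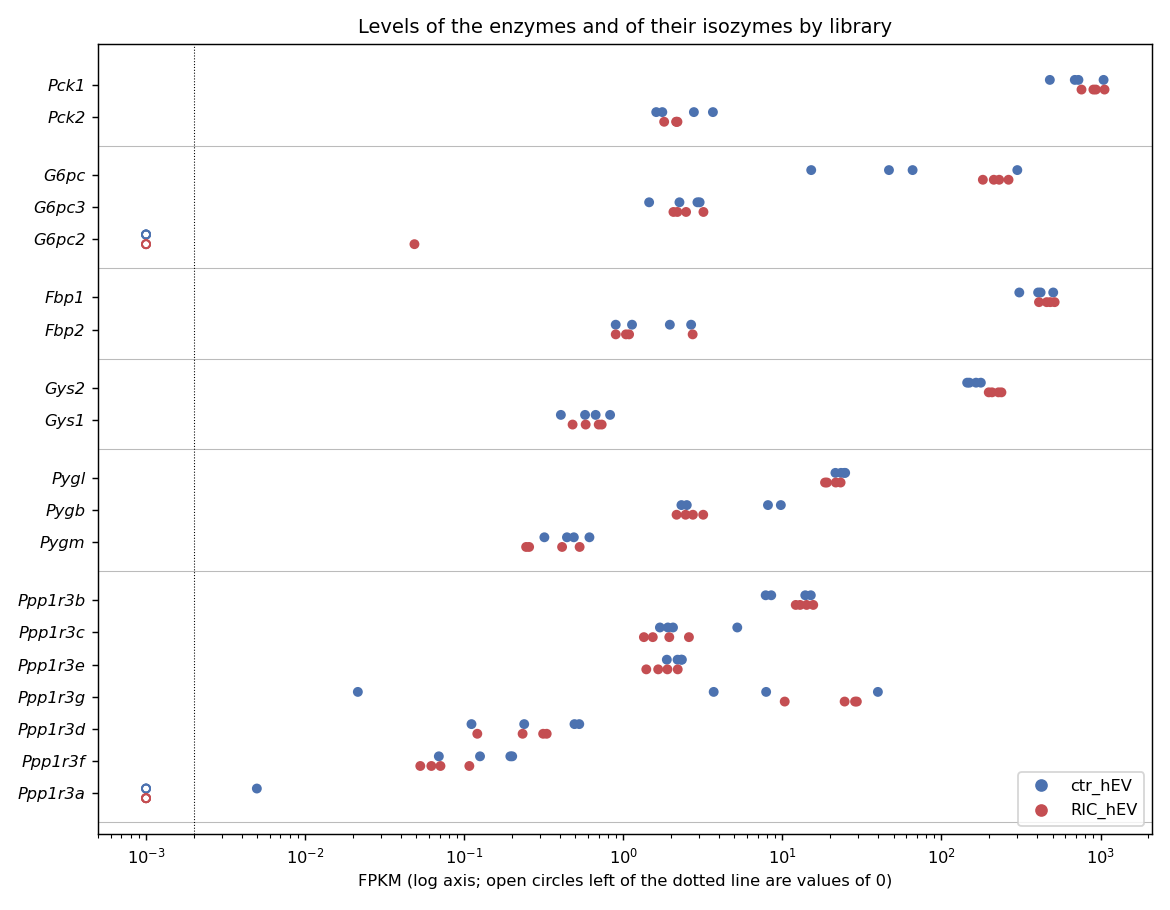
FPKM (horizontal log axis) of the liver enzymes and their isozymes in the 4 ctr_hEV (blue) and 4 RIC_hEV (red) libraries, 1 point per library, with values of 0 as open circles left of the dotted line. Pck1, Gys2 and Fbp1 lie above their isozymes in every library, and G6pc and Ppp1r3g have the widest spread within ctr_hEV.

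Of 22 other genes of glycogen metabolism 19 were tested. As fitted 3 were higher and 16 lower in RIC_hEV, where 27.0% of all tested genes were higher and 73.0% lower. Relative to the median gene 7 were higher and 12 lower (median -0.06). None passed in limma, with 2 lower and 0 higher at an unadjusted p under 0.05, and 0 lower and 1 higher with each library centred. Among all tested genes 11.3% were lower and 2.63% higher in this sense, or 3.89% and 8.14% centred. Pgm1, a phosphoglucomutase, was at 8.47 ± 2.24 FPKM in ctr_hEV and 6.04 ± 1.03 FPKM in RIC_hEV (relative log2 change -0.30, limma adjusted p = 0.356), and Stbd1, which ties glycogen to lysosomes, at 43.5 ± 6.89 and 34.6 ± 6.18. In the other direction the lysosomal glucosidase Gaa was at 10.6 ± 1.07 and 12.2 ± 1.35 FPKM. Pgm2 (0.13) and the phosphatase subunit Ppp1ca (0.11) were higher by less as relative log2 changes.

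The reversible steps and the carriers that feed gluconeogenesis lay mostly above the median gene. Of 22 genes, all tested, 20 were higher and 2 lower relative to it (median 0.16), and 15 and 7 as fitted. None passed in limma, and 1 was higher and 0 lower at an unadjusted p under 0.05, against 2.63% and 11.3% of all genes. With each library centred 7 were higher and 0 lower in this sense, against 8.14% and 3.89% of all genes, and the lowest adjusted p was 0.337. The gene in the first count was Mpc2, a subunit of the mitochondrial pyruvate carrier, at 19.9, 23.1, 19.4 and 24.3 FPKM in the ctr_hEV libraries and 25.8, 27.4, 29.6 and 25.5 in the RIC_hEV libraries, with no overlap (relative log2 change 0.42, limma adjusted p = 0.353). Among all tested genes 1.31% lay wholly higher in RIC_hEV. The aspartate aminotransferases Got1 (155 ± 55.3 and 218 ± 57.7 FPKM) and Got2 (93.6 ± 3.50 and 106 ± 8.86) had relative log2 changes of 0.65 and 0.28. The alanine aminotransferase Gpt2 was at 171 ± 48.7 and 138 ± 11.7 FPKM, and the lactate dehydrogenase subunits Ldhb and Ldha had relative changes of -0.06 and 0.02. Got1, like Pck1 and G6pc, was lowest in ctr_hEV 2 (79.2 FPKM).

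Among 19 regulators of these genes 18 were tested, 15 higher and 3 lower relative to the median gene (median 0.21), and 10 and 8 as fitted. None passed in limma, and 3 were higher and 1 lower at an unadjusted p under 0.05, or 6 and 0 with each library centred. Among all tested genes 2.63% were higher and 11.3% lower in this sense, or 8.14% and 3.89% centred. RIC_hEV lay wholly above ctr_hEV in 1 of the 18 and wholly below in 2, against 1.31% and 4.56% of all tested genes. Cebpb, a transcription factor of the Pck1 promoter, was at 93.8, 93.4, 124 and 122 FPKM in the ctr_hEV libraries and 148, 150.3, 133 and 140.2 in the RIC_hEV libraries, with no overlap (relative log2 change 0.52, limma adjusted p = 0.332). Klf15, a factor that drives amino acid use for gluconeogenesis, was at 50.9 ± 9.21 and 68.8 ± 9.41 FPKM (limma adjusted p = 0.353). Hnf4a, a hepatocyte nuclear receptor, was at 106 ± 8.68 and 129.9 ± 14.9 FPKM (limma adjusted p = 0.354). Nr3c1, the glucocorticoid receptor, was at 9.71 ± 0.198 and 7.96 ± 0.851 FPKM, with every RIC_hEV library below every ctr_hEV library (relative log2 change -0.15, limma adjusted p = 0.354). The deacetylase Sirt1 was at 2.96 ± 0.391 and 2.47 ± 0.0734 FPKM, also without overlap (relative log2 change -0.07, limma adjusted p = 0.399). With each library centred the unadjusted limma p was 0.194 for Nr3c1 and 0.676 for Sirt1. Cebpa had a relative change of -0.04.

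A list of 8 genes covered glucose uptake and the opposing glycolytic steps, and also held the bisphosphatase Fbp2. All were tested, 5 higher and 3 lower relative to the median gene (median 0.04), and 2 and 6 as fitted. Fbp2 was lower in both counts (relative log2 change -0.03). None of the 8 passed or had an unadjusted limma p under 0.05, with or without centring. Pfkfb1, the liver enzyme that sets fructose-2,6-bisphosphate, was at 6.21 ± 2.25 and 8.36 ± 1.42 FPKM, and Khk, the fructokinase, at 55.1 ± 19.2 and 60.9 ± 8.29. The glucose transporter Slc2a2 (-0.03) and Pfkl (0.02) stayed near the median gene as relative log2 changes.

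The tested genes whose profile over the 8 libraries was nearest to that of Pck1, by root mean square distance between profiles standardised to an SD of 1, were Ankrd33b (0.299), Oaf (0.304) and Por (0.321). Por, the electron donor of the P450 enzymes, was at 125, 86.4, 108 and 171 FPKM in the ctr_hEV libraries and 214, 183, 149 and 162 in the RIC_hEV libraries. Nearest to Gys2 were Hgd (0.269), Grtp1 (0.303) and Uqcr10 (0.333). Hgd, an enzyme of tyrosine breakdown, was at 194, 187, 219 and 208 FPKM in the ctr_hEV libraries and 233, 290.0, 249.6 and 236 in the RIC_hEV libraries. These distances describe 8 libraries and carry no test.

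In a piece of liver, fewer hepatocytes and less RNA per hepatocyte cannot be told apart. Summed FPKM of 11 hepatocyte markers (12 fixed) was 32545 to 47761 in ctr_hEV and 38616 to 46018 in RIC_hEV, and that of 12 periportal markers, from the zone where gluconeogenesis is strongest, 2285 to 2903 and 2612 to 3275. In RIC_hEV 9 of 11 and 9 of 12 were higher relative to the median gene, as were 9 of the 9 pericentral markers tested. The median relative log2 changes of these 3 lists were 0.25, 0.19 and 0.50, where that of the 10 genes was 0.35. Lower were 9 of 10 macrophage markers, 9 of 10 stellate cell and matrix markers, 4 of 4 tested neutrophil markers and 4 of 4 tested cholangiocyte markers, and of 6 endothelial markers 5 were higher. The 10 pericentral markers summed to 1675 and 1947 FPKM in ctr_hEV 1 and 3, and to 4125 to 4933 in the other 6 libraries. In ctr_hEV 1 and 3 the sums of 6 cholangiocyte markers (146 and 108, against 20.2 to 39.0 in the other 6) and of 10 macrophage markers (1465 and 1162, against 615 to 916) were the highest. ctr_hEV 2, lowest in G6pc, Pck1 and Fbp1, was at 26.3 and 829 FPKM in these sums, within the range of RIC_hEV, but at 31.4 FPKM in the neutrophil sum, above it. The 10 stellate cell and matrix markers summed to 120.2 to 282 and 112 to 149.8 FPKM, the 8 neutrophil markers to 12.8 to 70.4 and 6.68 to 15.7, the 8 lymphocyte markers to 3.18 to 5.67 and 4.47 to 5.46, and the 6 endothelial markers to 67.8 to 80.7 and 63.4 to 89.9. Their part in the changes was not tested. Without ctr_hEV 1 and 3 the relative log2 changes were 0.49 for Gys2, 1.70 for G6pc and 0.39 for Pck1 (limma adjusted p of 0.712, 0.886 and 0.888). They were 0.40 for Fbp1, 0.27 for Ppp1r3b, 0.13 for Pcx, -0.19 for Pygl, -0.42 for Ugp2 and -0.60 for Ppp1r3c. The limma adjusted p of these 6 genes lay between 0.886 and 0.917. Adipocytes, which also express Pck1, left at most 0.540 FPKM over 5 markers, with Adipoq and Lep listed at 0 in every library, and 5 skeletal muscle markers summed to at most 1.14 FPKM.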

How the data were processed

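Whole-liver RNA was sequenced in 8 libraries, 4 ctr_hEV and 4 RIC_hEV, grouped and numbered by their titles. RNA was extracted with Trizol and libraries were made with a VAHTS universal kit, per the labels' protocols. Tools listed, without roles, per the submitters' processing notes are HISAT2 2.2.1, HTSeq 0.13.5, DESeq2 1.18.1, R 3.4.1, Trimmomatic 0.38 and FastQC 0.11.9, with the build mm10. The authors deposited FPKM values, 1 column per library. No source used here gives the gene lengths, annotation or strand setting behind FPKM, and a fixed total per library makes every FPKM depend on the abundant genes.

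Of 55335 rows, 3225 without a gene name (0.176% to 0.207% of FPKM) were left out. Of 80 symbols on more than 1 row the higher row kept the name, and 26 rows with symbols turned into dates were tested unnamed. No 2 libraries held identical values. Genes with a mean of at least 1 FPKM were tested on log2(FPKM + 1) with limma 3.58.1 in R 4.3.3 (empirical Bayes, mean-variance trend, two-sided, Benjamini-Hochberg adjustment over 11274 genes, threshold 0.05). A log2 change on this scale understates that of low genes. The procedure was also run on simulated data with independent noise for each gene and library. Such data lack shifts that many genes share, as in ctr_hEV 1 and 3, so the run does not cover these. FPKM times exon length (GENCODE release M21) gave the estimated depth. Only 14.6% to 16.3% of low values lay within 0.02 of a whole step, so no count test was run. Of the 31-base stretches of each of the 10 genes at most 1.57% occur in another annotated gene. The genes and lists were chosen with earlier results of these data known. Named besides the 10 were all listed isozymes, up to 3 genes per direction of fitted change and other list by p, and 3 nearest profiles of Pck1 and Gys2, except for a few genes that are not reported here. A marker list of 12 hepatocyte genes lost Tf, which the table does not hold under that symbol. Alternatives changed the pseudocount, filter, scaling, moderation, replicate block and libraries.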

Additional observations from a re-analysis of the deposited data

Results flagged for a closer look

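In groups of 4 libraries, a library was singled out when its gap to the nearest other exceeded the critical value of Dixon's test as a share of the range of its group. Of 20 groups (10 genes in 2 groups) 1 was singled out, where chance gives about 1 in 20. Ppp1r3c, a targeting subunit of protein phosphatase 1, was at 5.21 FPKM in ctr_hEV 2 and between 1.70 and 2.05 FPKM in the other 3 ctr_hEV libraries, a gap of 0.899 of the range. The same library was the lowest of all 8 in G6pc, Pck1 and Fbp1 and the highest in Ugp2.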

How the results depend on the processing

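Over 17 alternatives to the fit, 167 of 169 values of the 10 genes kept their direction relative to the median gene and their side of the threshold. The exceptions were G6pc without ctr_hEV 4 (2.72, adjusted p = 0.0286) and Ppp1r3c without ctr_hEV 2 (0.084, in a range of -0.34 to 0.084 with 1 library left out). Ppp1r3c lay below a filter of 5 FPKM and has no value there. Per-library median centring, robust empirical Bayes and the replicate block cannot alter the relative change. Under these settings only the side of the threshold could move. The number of the 10 genes that passed was 0, and 0 to 1 with 1 library left out. Over all genes 4 passed, 2 without the filter, 1 with a minimum of 5 FPKM, 1 to 176 with 1 library left out (176 without ctr_hEV 4, 2 without RIC_hEV 1, 1 without RIC_hEV 3 or RIC_hEV 4), and 8 without ctr_hEV 1 and 3 together, a choice made after the data had been seen. The cause was not tested. Same-numbered libraries did not deviate together (correlations of 0.0524, 0.120, -0.00854 and -0.227 over genes, and 1 of 8 libraries correlating best with its own number). With so few libraries this cannot exclude a pairing by number, and the labels state none. With the replicate block 3 genes passed and 0 of the 10. Depth, known only as an estimate, limits Ppp1r3c and the isozymes below 1 FPKM most.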

Other observations

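Other genes known to respond to fasting and feeding in liver shared the library order of G6pc in part, and were picked after their values were seen. Irs2, an adaptor of the insulin receptor whose transcription FOXO1 drives, was at 6.84, 4.44, 9.36 and 25.0 FPKM in the ctr_hEV libraries and at 11.9, 12.9, 14.8 and 8.77 in the RIC_hEV libraries. Sik1, a kinase induced by cyclic AMP, was at 11.7, 3.70, 14.2 and 20.4 FPKM in the ctr_hEV libraries and at 15.7, 12.7, 17.2 and 13.1 in the RIC_hEV libraries. Both were lowest in ctr_hEV 2 and highest in ctr_hEV 4, as were G6pc and Ppp1r3g. Other genes of the same list of regulators were not. Ppargc1a was lowest in ctr_hEV 1 (2.61 FPKM) and highest in RIC_hEV 1 (5.63 FPKM). Klf15 was lowest in ctr_hEV 1 (40.1 FPKM) and highest in RIC_hEV 2 (79.1 FPKM). The labels give neither feeding state nor hour of harvest, and their part in these values was not tested.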
